A study of Mus musculus with 7 samples.

Results

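Twist2 dermal mesenchyme of the embryonic mouse nose was examined as a set of single cells chosen from raw counts of unique molecular identifiers (UMIs, 1 per captured transcript). A cell was taken as a member when it held at least 1 UMI of Twist2, at least 1 of Apcdd1 or Nkd2 and at least 1 of Col1a1 or Col3a1. Cells with any UMI of Sox2, Epcam, Pecam1 or Sp7 were left out. The rule kept 2713 of 31465 cells (8.62%), of which 2296 came from wild-type (WT) libraries. Since those 9 genes chose the cells, their levels are given below as a description and were not tested.

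The libraries are droplet 3-prime RNA libraries (10x Chromium) of whole noses at embryonic day 14.5. The WT libraries came from CD1 IGS mice, an outbred stock. WT replicates 3 and 4 shared 7386 of their 7396 and 7408 barcodes, so replicate 3 was set aside and replicates 1, 2, 4 and 5 stood for 4 captures, called WT 1, WT 2, WT 4 and WT 5. The other libraries came from 1 nose of the ProKR2iCre/R26tdTomato line (Cre allele B6;SJL-Prokr2em1(cre)Cfe, reporter allele Gt(ROSA)26Sortm14(CAG-tdTomato)Hze), in which the prokineticin receptor 2 gene drives Cre recombinase and Cre turns on a red fluorescent reporter. A single suspension of that nose was loaded with and without cell sorting. Which library is the sorted one is not given by the labels, so they are called Prokr2Cre 1 and Prokr2Cre 2 and are described side by side, with no averaging and no test. The labels do not say which nose gave which WT library, so the capture is the unit of the tests below. The p-values of the main tests measure how much the within-capture difference between classes varied across these captures.

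As background, Twist2 encodes a basic helix-loop-helix transcription factor of the early dermis. Dermal fibroblast precursors below the surface ectoderm receive Wnt ligands, which stabilise beta-catenin so that it can work with TCF/LEF factors at target genes. Many of those targets, among them Apcdd1, Nkd2, Axin2 and Dkk1, encode inhibitors of the pathway and form negative feedback. Some of these fibroblasts gather under hair and whisker follicles as dermal condensates, which carry Sox2 and Sox18 and respond to hedgehog ligands from the epithelium.

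The promoters of 3 genes that stood higher in the members are shown because they hold the core letters of the TCF/LEF motif, CTTTGA or its reverse complement TCAAAG, in the 250 bases before the transcription start. Both strands were searched, and the matches are in capitals. Sp5 (chr2:70474673-70474922, plus strand) has matches that start 204 and 104 bases before the start, Dkk1 (chr19:30549497-30549746, minus strand) has them at 174 and 117 bases, and Sp9 (chr2:73271676-73271925, plus strand) has 1 at 22 bases. The sequences are from RefSeq on GRCm38.p6 and are written 5′ to 3′ in the direction of the gene.
Sp5: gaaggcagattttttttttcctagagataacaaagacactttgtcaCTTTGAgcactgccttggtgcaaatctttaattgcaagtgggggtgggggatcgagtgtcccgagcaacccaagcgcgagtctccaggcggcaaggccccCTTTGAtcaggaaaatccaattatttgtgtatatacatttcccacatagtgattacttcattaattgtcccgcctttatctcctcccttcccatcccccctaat
Dkk1: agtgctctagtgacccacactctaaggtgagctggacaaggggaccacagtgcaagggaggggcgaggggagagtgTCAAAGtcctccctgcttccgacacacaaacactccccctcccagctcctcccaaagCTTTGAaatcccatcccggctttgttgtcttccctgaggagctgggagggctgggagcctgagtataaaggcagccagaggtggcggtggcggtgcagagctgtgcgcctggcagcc
Sp9: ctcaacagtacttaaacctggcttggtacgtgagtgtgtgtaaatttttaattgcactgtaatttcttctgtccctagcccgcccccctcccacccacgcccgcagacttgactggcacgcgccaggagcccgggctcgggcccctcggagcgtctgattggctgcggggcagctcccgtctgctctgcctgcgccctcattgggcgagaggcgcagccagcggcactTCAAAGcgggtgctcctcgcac
Of 32851 promoters in the same table, 4544 (13.8%) held a match in that window. Of the gene lists used below, the table holds 11 promoters of 6 Wnt target genes, of which 2 had a match (Sp5 and 1 of 4 of Lef1), and 10 promoters of 10 Wnt inhibitor genes, of which 2 had a match (Dkk1 and Frzb). Frzb stood lower in the members. These letters are a description of the sequence and not a measured binding site.

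The captures differed in ways that touch the members. Members made up 1.19% of kept cells in WT 1 (93 of 7790, exact Clopper-Pearson 95% interval 0.965% to 1.46%), 8.69% in WT 2 (912 of 10496, 8.16% to 9.24%), 11.4% in WT 4 (798 of 7029, 10.6% to 12.1%) and 15.2% in WT 5 (493 of 3250, 13.95% to 16.4%). The mean over the WT captures was 9.10% ± 5.90 (SD, n = 4). Members were 18.9% of kept cells in Prokr2Cre 1 (338 of 1789) and 7.11% in Prokr2Cre 2 (79 of 1111). Without thinning the intervals of the WT captures did not overlap, and they cover counting error only. After each cell was thinned to 3000 UMIs, which lowers the chance of seeing a gate gene, the shares were 0.203%, 5.72%, 6.29% and 6.77% in WT 1, WT 2, WT 4 and WT 5, so WT 1 remained far below the others. At that depth the mean was 4.75%, and the intervals of WT 2 (5.25% to 6.21%), WT 4 (5.71% to 6.91%) and WT 5 (5.89% to 7.74%) overlapped.

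**Figure D1:**
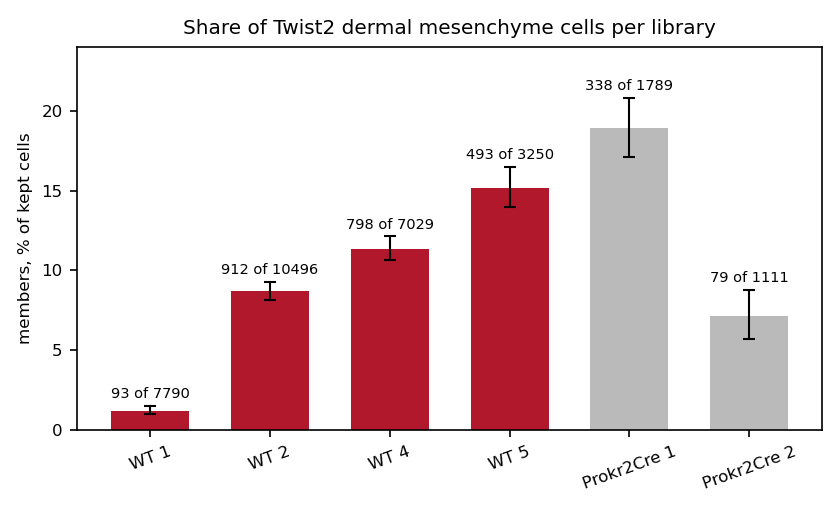
Share of Twist2 dermal mesenchyme cells among kept cells in each library, in percent (y axis, from 0), with exact 95% binomial intervals as bars and the cell numbers above them. WT captures are red and both data sets of the single Prokr2Cre nose are grey. WT 1 stands lowest at 1.19% and Prokr2Cre 1 highest at 18.9%.

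WT 1 also reached the gate by another route. There, 75 of 93 members (80.6%) carried Nkd2 without Apcdd1, against at most 22.4% of members in WT 2, WT 4 and WT 5. Apcdd1, an inhibitor of Wnt signalling at the cell membrane, stood at 19.0 CPM (UMIs of all members of a capture, summed and scaled to a common library total) in WT 1 members and at 259, 199 and 252 CPM in WT 2, WT 4 and WT 5. Twist2 stood at 189, 525, 455 and 441 CPM in the same order. Nkd2, which antagonises Dishevelled, varied less, with 81.3, 99.7, 127 and 73.7 CPM. WT 1 was counted with Cell Ranger 6.0.1 and the other WT captures with 7.0.0. Genes that span at least 100000 bases took 4.83% of member UMIs in WT 1, 10.9% in WT 2, 14.7% in WT 4 and 16.4% in WT 5, and 6.04% and 14.2% in Prokr2Cre 1 and 2. The part of these differences in the results was not tested beyond the fits without WT 1 given below.

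The edge of the gate was populated on both sides. Exactly 1 UMI of Twist2 was held by 52 of 93 members in WT 1, 253 of 912 in WT 2, 236 of 798 in WT 4 and 111 of 493 in WT 5. Just outside it, 655, 1007, 859 and 398 cells carried Twist2 and a collagen transcript but neither Apcdd1 nor Nkd2. Members were somewhat deeper than those cells, with median UMIs of 11099, 5476, 6699 and 12512 against 9353, 5457, 6050 and 12289. Because a deeper cell is more likely to show 1 UMI of a gate gene, fits with both sides limited to 5000 to 20000 UMIs were run as well.

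Several dermal fibroblast genes that the rule does not use were detected in the members of every WT capture, at unequal levels. Crabp1, a retinoic acid binding protein of upper dermal fibroblasts, stood at 1043, 1314, 825 and 699 CPM in WT 1, WT 2, WT 4 and WT 5, and this order of captures is kept for every set of 4 values below. The leucine-rich proteoglycans Lum and Dcn, which bind collagen fibrils, were between 200.1 and 537 CPM and between 196 and 581 CPM. Some other dermal fibroblast genes were low. Their means over WT 2, WT 4 and WT 5 members were 0.336 CPM for Pi16, 4.25 for Dpp4, 5.30 for Dpt and 6.26 for Thy1. Markers of several other cell types were low in sum: members held 7.57 to 18.7 CPM over 8 epithelial genes, 3.53 to 13.0 CPM over 6 endothelial genes, 1.69 to 27.2 CPM over 6 immune genes, 4.90 to 19.2 CPM over 7 glial and melanocyte genes and 0.700 to 3.68 CPM over 6 muscle genes, of which Myod1 was at 0. Smooth muscle and pericyte genes summed to 54.3 to 173 CPM, of which Acta2 (smooth muscle actin) made up 88.3, 137, 21.4 and 63.9 CPM. Globin transcripts, which red blood cells release, summed to 103, 474, 141 and 3187 CPM. Neuronal and skeletal genes were not near 0. The 6 neuronal genes summed to 177, 404, 368 and 347 CPM in members and to 141, 174, 290.3 and 161 CPM in the mesenchymal cells without Twist2, so members were higher in each capture. The 14 skeletal genes summed to 286 to 611 CPM in members and to 2233 to 4659 CPM in those cells. The part of these transcripts in the results was not tested.

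Some markers were lower in WT 1 members and others were not. The 16 dermal fibroblast genes summed to 4296 CPM in WT 1 members and to 4628 to 4789 CPM in the other captures. Lef1, a TCF/LEF factor that marks Wnt-responsive dermis, stood at 30.3 CPM in WT 1 members and at 157, 336 and 218 CPM in the other captures, and it was lowest in WT 1 among the cells without Twist2 too. Sox18 was absent from the 93 WT 1 members, for which the exact 95% interval allows a share of cells with a UMI of up to 3.89%, while 8.77% to 11.97% of members held it in the other WT captures. Pax9, a factor of pharyngeal and facial mesenchyme, was seen in 36.6% of WT 1 members against 3.07%, 5.01% and 14.6% in WT 2, WT 4 and WT 5.

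The first comparison asked how the members differed from the other mesenchyme of the same captures, defined as cells with Prrx1 or Twist1 and no Twist2, of which the 4 WT captures held 16289. UMIs were summed per capture and class and tested with edgeR's quasi-likelihood test with the capture as a block (n = 4 captures, two-sided, adjusted p below 0.05 over all genes tested). Of 14167 genes tested, 2118 (15.0%) were higher and 1968 (13.9%) lower in the members, or 28.8% in either direction. Without the block for the capture only 58 were higher and 64 lower. Without WT 1, 2571 were higher and 2134 lower, and without WT 2, the lowest count among fits with 1 capture left out, 1074 and 1135.

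Genes were ranked by fold change among those that passed, had the same sign in every capture and averaged at least 50 CPM on the higher side. Transcription factor genes were among the 12 highest. Sp9, a zinc-finger factor of the Sp family, stood at 13.0, 80.3, 84.3 and 66.6 CPM in members and at 0.310, 4.00, 5.28 and 2.37 CPM in other mesenchyme. The groups did not overlap, although WT 1 was lowest on both sides. The log2 fold change was 4.40 (SE 0.14, adjusted p = 4.4e-07), or 5.03 with both sides limited to 5000 to 20000 UMIs. Irx1, an Iroquois homeobox factor, stood at 37.2, 134, 68.6 and 93.3 CPM against 2.27, 6.06, 3.81 and 7.76 CPM. Every member value lay above every other value (log2 fold change 4.10, SE 0.14, adjusted p = 4.5e-07). Pax1, a paired-box factor, had 7.79, 75.6, 50.3 and 72.9 CPM against 2.13, 8.99, 9.13 and 9.15 CPM, and the WT 1 members fell within the range of the other cells. Pax1 still passed the test (log2 fold change 2.83, SE 0.14, adjusted p = 3.7e-06).

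Secreted factors and further regulators stood in the same group. Cxcl14, a chemokine of skin, was at 250.1, 635, 748 and 477 CPM in members and 39.5, 102, 172 and 71.4 CPM in other mesenchyme, so the groups did not overlap. The log2 fold change of Cxcl14 was 2.54 (SE 0.10, adjusted p = 7.9e-07). The agouti gene (symbol a), which encodes a melanocortin antagonist that dermal cells secrete to set coat pigment, was at 32.0, 220, 217 and 142 CPM against 7.16, 29.4, 37.2 and 14.5 CPM. WT 1 members lay within the range of the other cells, and the log2 fold change was 2.84 (SE 0.14, adjusted p = 3.7e-06). Sim1, Vgll3, Emx2 and Emx2os, which encode a helix-loop-helix factor, a TEAD cofactor, a homeobox factor and its antisense transcript, had log2 fold changes of 2.88, 2.85, 2.77 and 2.61. Reads of Emx2 and Emx2os may be shared, since the sources used here do not state how strand was counted.

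Nrxn3, Tmem132c and Lrrc7, which encode proteins known from neuronal contacts and membranes, completed the set with log2 fold changes of 3.36, 2.75 and 2.53. Nrxn3 stood at 2.60 CPM in WT 1 members and at 493, 341 and 653 CPM in the others, against 2.56, 41.5, 40.8 and 51.0 CPM in other mesenchyme. WT 1 was thus low on both sides. All 12 of these genes were also higher in the members of Prokr2Cre 1 and of Prokr2Cre 2.

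**Figure D2:**
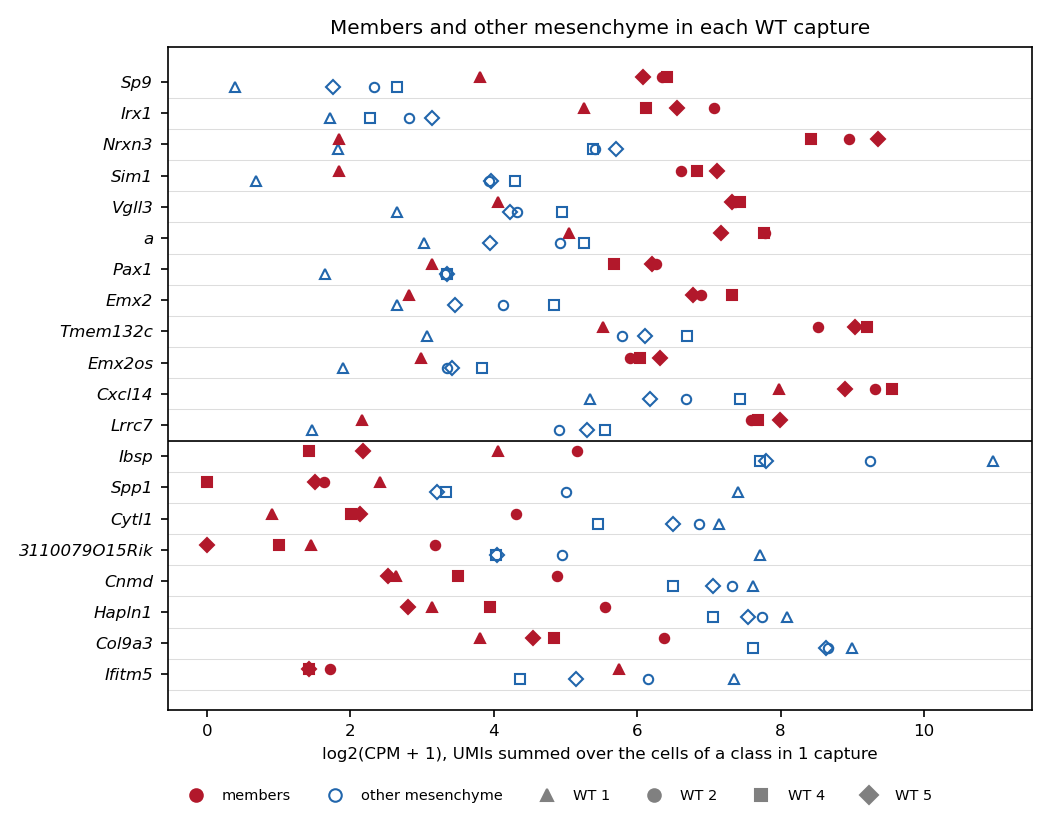
Levels of the 12 genes with the highest and the 8 with the lowest fold change in members against other mesenchyme, among genes that passed with 1 sign in every capture and at least 50 CPM on the higher side, as log2(CPM + 1) of UMIs summed per capture (x axis). Filled red symbols are members, open blue symbols other mesenchyme, and the shape gives the WT capture. For Sp9 and Irx1 every filled symbol lies to the right of every open one, while WT 1 members lie far to the left for Nrxn3, Sim1 and Lrrc7.

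Genes of bone and cartilage were prominent among the 8 on the lower side. Ibsp, a sialoprotein of mineralising bone, was at 15.6, 34.8, 1.68 and 3.52 CPM in members and at 1987, 605, 208 and 221 CPM in other mesenchyme. The groups did not overlap, and the log2 fold change was -5.40 (SE 0.38, adjusted p = 1.6e-05). Without WT 2, whose members had the most Ibsp, it was -6.64. Spp1 (osteopontin), Cytl1, Cnmd (chondromodulin), Hapln1 (a link protein of cartilage matrix), Col9a3 (a cartilage collagen chain) and Ifitm5 (an osteoblast membrane protein) had log2 fold changes of -4.05, -3.55, -3.36, -3.32, -3.25 and -3.25. The transcript 3110079O15Rik had -3.51 and moved to -5.80 without WT 2 and to -2.83 without WT 1. WT 2 members held the highest level of 5 skeletal genes in this group, with 18.9 CPM of Cytl1, 28.3 of Cnmd, 45.8 of Hapln1, 81.5 of Col9a3 and 34.8 of Ibsp. Ifitm5 was highest in WT 1 members at 52.8 CPM, and without WT 1 its log2 fold change was -4.37. Without WT 2, Cytl1 moved to -4.61, Cnmd to -4.05 and Hapln1 to -4.13, and Spp1 moved to -4.67 without WT 5. The rule itself bears on the bone genes, because it removes cells with Sp7, an osteoblast factor, from the members and not from the other mesenchyme. When the comparison cells had to pass the same collagen and exclusion gates, Ibsp was -3.10, Spp1 was -2.50 and Ifitm5 was -0.98, and all of them still passed. With both sides limited to 5000 to 20000 UMIs, Spp1 was -5.22 and Ifitm5 -4.61, and Ifitm5 was -4.54 with at least 2 Twist2 UMIs asked of a member. With cells above 2 times the library median left out, Ibsp was -4.53, Spp1 -4.89, Cytl1 -4.52, 3110079O15Rik -4.59, Cnmd -4.18 and Hapln1 -4.13. DESeq2 gave -5.99 for Ibsp, -4.32 for Cytl1 and -5.12 for 3110079O15Rik. All 12 skeletal genes tested from the list fell, including Sox9, the cartilage master factor (-2.69), Runx2, the bone master factor (-1.94, or -2.53 with at least 2 Twist2 UMIs asked of a member), and the cartilage collagen Col2a1 (-3.18). The list's median was -3.11, beside 0.00 over all genes, and with the same gates on both sides all 12 fell with a median of -2.76.

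Wnt target genes were the list closest to the gate, since Apcdd1 and Nkd2 are targets themselves. Of 10 targets tested besides those, 7 rose and 1 fell, with a median log2 fold change of 1.28, and without WT 1 the counts were 7 and 3. Of all genes tested, 28.8% were called. Axin2, a scaffold of the beta-catenin destruction complex, was at 26.8, 41.8, 76.2 and 39.5 CPM in members and at 12.5, 13.5, 25.7 and 14.4 CPM in other mesenchyme, so the groups did not overlap. The log2 fold change of Axin2 was 1.52 (SE 0.10, adjusted p = 1.3e-05).

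Lef1 was at 30.3, 157, 336 and 218 CPM against 12.6, 45.9, 85.3 and 52.2 CPM, with WT 1 members below 3 of the other values (log2 fold change 1.90, SE 0.11, adjusted p = 6.4e-06). Nkd1, the paralog of the gate gene Nkd2, was at 48.5, 204, 199 and 180 CPM against 25.9, 44.5, 48.7 and 46.8 CPM. WT 1 members were only just below the highest other value, and the log2 fold change was 1.92 (SE 0.16, adjusted p = 3.8e-05). Sp5, the zinc-finger factor whose promoter is shown above, was at 6.06, 30.6, 19.7 and 27.0 CPM against 1.18, 1.11, 1.92 and 2.11 CPM. Those groups did not overlap, and its log2 fold change of 3.77 (SE 0.29, adjusted p = 2.6e-05) was the highest of the list.

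Other targets moved less or in the other direction. Lgr5, a receptor for R-spondins, rose with a log2 fold change of 1.42 (SE 0.13). Notum, an enzyme that inactivates Wnt ligands, rose by 1.15 (SE 0.29) at under 5 CPM in each capture. It was lower in WT 1 members (0.865 against 1.49 CPM), and the call was lost without WT 2, WT 4 or WT 5. The ubiquitin ligases Rnf43 and Znrf3 remove Frizzled receptors from the membrane. Rnf43 fell by 2.01 (SE 0.36), from levels of 1.90 to 4.37 CPM in other mesenchyme to at most 1.18 CPM in members, and was -1.33 with the same gates on both sides. Znrf3 rose by 0.27 (SE 0.08), a call lost with DESeq2, without the filter on low counts and without WT 4 or WT 5. Tcf7 and Bambi did not pass the test, with log2 fold changes of -0.27 and -0.30, and both depended on the setting. Tcf7 was 0.76 and passed with the same gates on both sides, and was -0.45 and passed without WT 1. Bambi passed in 6 alternatives, with -0.22 to -0.59, among them the fit without WT 1.

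The inhibitors of the pathway split evenly, with 6 higher and 6 lower of 14 tested. Dkk1, which blocks the LRP5/6 coreceptors, was at 15.6, 56.1, 95.02 and 60.1 CPM in members and at 13.5, 15.9, 19.9 and 12.3 CPM in other mesenchyme. In WT 1 the levels were close to each other, and in the other captures they were well apart (log2 fold change 1.95, SE 0.22, adjusted p = 0.00018). Sostdc1, an inhibitor of Wnt and BMP signals, was at 273, 585, 397 and 604 CPM against 104, 130, 168 and 105 CPM. The groups did not overlap (log2 fold change 1.85, SE 0.20, adjusted p = 0.00015). Wif1, which binds Wnt ligands, rose by 0.82 (SE 0.10). The secreted Frizzled-related proteins moved the other way: Sfrp1 fell by 1.39 (SE 0.19) and Frzb by 1.18 (SE 0.22), and Sfrp1 was -2.12 with at least 2 Twist2 UMIs asked of a member. Sfrp1 members held 177 CPM in WT 1 and 43.6, 41.9 and 49.3 CPM in the other captures, against 212, 150.1, 150.5 and 148 CPM.

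**Figure D3:**
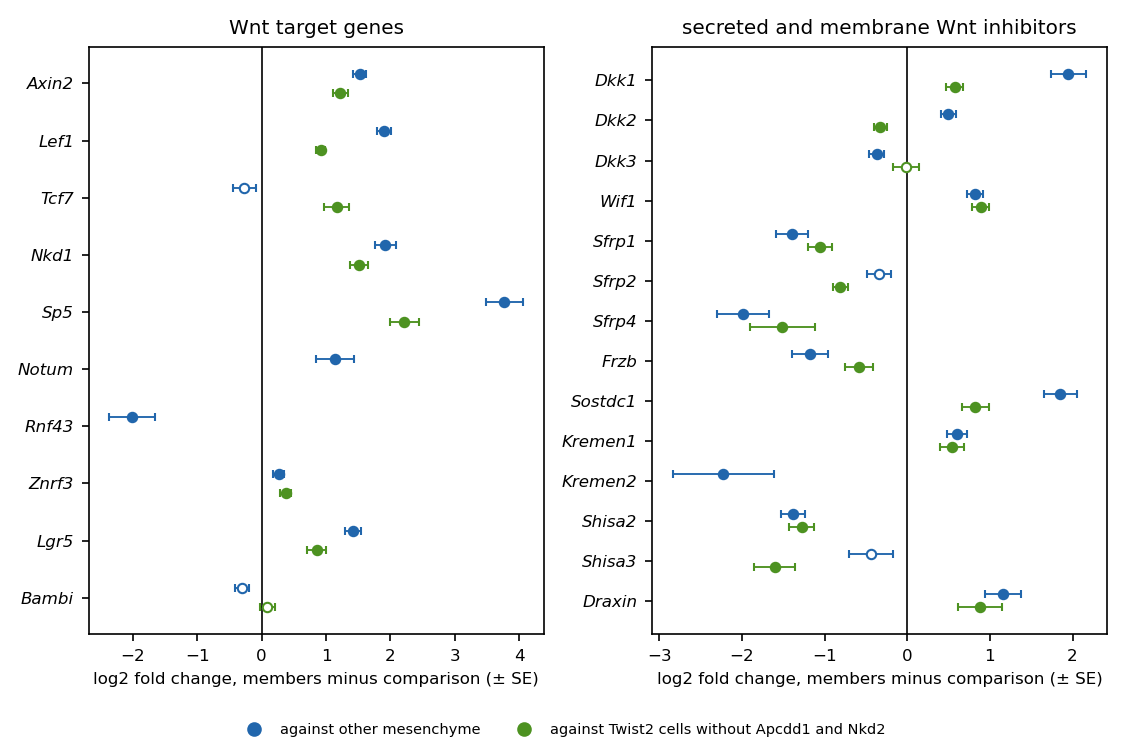
Log2 fold changes (x axis, with SE as bars) of Wnt target genes and Wnt inhibitors in members, against other mesenchyme (blue) and against Twist2 cells without Apcdd1 and Nkd2 (green), over 4 WT captures. Filled points passed an adjusted p of 0.05 in edgeR and open points did not. Sp5 reaches 3.77 and Rnf43 -2.01 among targets, and Sfrp1 lies below 0 where Dkk1 and Sostdc1 lie above it.

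Among ligands and their helpers, 6 of 16 rose and 3 fell. Wnt11, a ligand of the branch that acts without beta-catenin, was at 11.2, 37.3, 18.0 and 25.0 CPM in members and at 5.12, 9.70, 5.70 and 13.3 CPM in other mesenchyme. Only WT 1 members fell within the range of the other cells (log2 fold change 1.50, SE 0.18, adjusted p = 0.00028). Wnt5a rose by 0.60 (SE 0.06) and Rspo1, a potentiator of Wnt signals, by 0.91 (SE 0.10). Rspo4 rose by 2.41 (SE 0.31) at 2.14 to 4.04 CPM. Among receptors and their partners 3 of 20 rose and 11 fell, with a median of -0.30. The Frizzled receptor Fzd10 was at 2.60, 13.5, 30.4 and 15.8 CPM against 1.73, 3.14, 7.70 and 3.03 CPM (log2 fold change 2.07, SE 0.19, adjusted p = 5.4e-05). Fzd9 and Fzd4 went the other way, with -2.98 (SE 0.25) and -1.67 (SE 0.21).

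Dermal fibroblast genes rose in 10 of 15 cases and fell in 3, with a median of 0.59. Crabp1 was at 231, 332, 337 and 236 CPM in other mesenchyme, below every member value (log2 fold change 1.75, SE 0.11, adjusted p = 1.1e-05). Dpt (dermatopontin, a protein of the dermal matrix) was at 26.0, 4.55, 1.85 and 9.50 CPM in members and at 1.80, 0.400, 0.528 and 1.08 CPM in other mesenchyme. The groups just failed to overlap, WT 1 held the most on both sides, and the log2 fold change was 3.21 (SE 0.31, adjusted p = 8.7e-05). Thy1, a surface protein of fibroblasts, rose by 2.04 (SE 0.24), and Trps1, a GATA-type repressor needed for hair, rose by 1.56 (SE 0.13). Trps1 ranged from 91.7 CPM in WT 1 members to 2252 CPM in WT 4 members. Cthrc1, a secreted protein of matrix-forming cells, fell by 1.90 (SE 0.13), from 321, 490, 185 and 345 CPM to 134, 149, 38.0 and 70.5 CPM.

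Crabp1, Lef1, Irx1 and Trps1 were also compared as shares of cells at equal depth. With every cell thinned to 3000 UMIs, Crabp1 was present in 67.9% ± 14.2 of members and 35.1% ± 6.80 of other mesenchyme (SD, n = 4 captures). In cells with C1qa and Fcer1g UMIs and no Twist2, which are macrophage-like and serve as a background, it was 2.42% ± 3.99. Unthinned, the shares were 81.9%, 47.5% and 5.90%. Median depths before thinning ranged from 5476 to 12512 UMIs in members and from 3987 to 12097 in the macrophage-like cells, and 81, 1318 and 31 cells of the respective sets were too shallow. Lef1 was present in 33.3% ± 19.0 of members, 11.0% ± 5.77 of other mesenchyme and none of the macrophage-like cells. Irx1 was present in 16.1% ± 7.49, 1.24% ± 0.591 and none, so that most members showed no Irx1 UMI at this depth. Trps1 had a higher background of 19.0% ± 10.9, beside 62.8% ± 29.4 of members and 39.5% ± 17.8 of other mesenchyme.

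Factors of facial regions fell more often than they rose in the count of calls, but not in the sums of WT 1. Of 10 genes that mark other regions of nasal mesenchyme, 2 rose and 6 fell, with a median of -1.12. Mecom, a zinc-finger factor, was at 18.2, 11.7, 21.2 and 48.7 CPM in members and at 18.4, 90.9, 117 and 147 CPM in other mesenchyme, and only in WT 1 were the levels close (log2 fold change -2.06, SE 0.24, adjusted p = 0.00026). Aldh1a2, which makes retinoic acid, fell by 1.88 (SE 0.19), or by 2.70 with at least 2 Twist2 UMIs asked of a member, and Osr1, an odd-skipped factor, rose by 0.97 (SE 0.10). Pax9 fell by 1.16 (SE 0.38), or to -2.12 with at least 2 Twist2 UMIs, but it was at 90.0 CPM in WT 1 members against 48.5 CPM in WT 1 other mesenchyme, and the call was lost with DESeq2, under stricter cell filters and without WT 2, WT 4 or WT 5. Of 31 craniofacial transcription factors 3 rose and 15 fell. In WT 1 the sums were higher in members for both lists, at 707 against 476 CPM of regional and 781 against 739 CPM of craniofacial genes, and in WT 2, WT 4 and WT 5 they were lower. Foxc1, a forkhead factor, was at 13.0, 13.6, 12.9 and 11.8 CPM against 35.6, 56.1, 51.5 and 44.2 CPM, and the groups did not overlap (log2 fold change -1.91, SE 0.09, adjusted p = 2.6e-06). With at least 2 Twist2 UMIs asked of a member, Foxc1 was -2.79, Mecom -2.85 and Aldh1a2 -2.70. Dlx5 and Six2, homeobox factors of the jaw and nasal skeleton, fell by 2.38 (SE 0.27) and 1.65 (SE 0.21), or to -3.07 and -2.38 with at least 2 Twist2 UMIs. Zic1, a zinc-finger factor, rose by 1.16 (SE 0.22).

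Genes of retinoic acid and fibroblast growth factor (FGF) signalling moved in both directions. In the retinoic acid list 2 of 11 rose, Crabp1 and the degrading enzyme Cyp26b1 (0.68), while 6 fell, among them the receptor Rarb (-0.84). The list summed to 1926, 2085, 1514 and 1449 CPM in members, Crabp1 included, and to 1203, 1450.2, 1207 and 1156 CPM in other mesenchyme. In the FGF list 1 of 15 rose and 6 fell, with Fgfr3, a receptor of cartilage, at -2.34, while its sum was higher in members in WT 1, WT 2 and WT 4 and lower in WT 5. BMP and TGF-beta genes were divided, with 7 of 22 higher and 9 lower. The BMP antagonist Chrdl1 fell by 2.08 (SE 0.28), or by 2.68 without WT 5 and by 2.73 with at least 2 Twist2 UMIs asked of a member.

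Proliferation genes were higher in the members without exception in this comparison. All 20 S-phase and all 20 G2/M genes rose, with median log2 fold changes of 0.54 and 0.65, and without the block 1 and 0 passed. S-phase genes summed to 1515, 1398, 1367 and 1344 CPM in members and to 821, 1067, 955 and 923 CPM in other mesenchyme, so the groups did not overlap. G2/M genes summed to 2324, 2921, 3012 and 1452 CPM against 1472, 1729, 1857 and 1136 CPM. WT 5 was low on both sides, so these groups overlapped between captures but not within one. Mki67, a marker of cycling nuclei, rose by 0.68 (SE 0.07, adjusted p = 9.9e-05), and Rrm2, a subunit of ribonucleotide reductase, by 0.94 (SE 0.06, adjusted p = 9.1e-06). Members were also deeper, with medians of 11099, 5476, 6699 and 12512 UMIs against 8960, 4844, 5594 and 11067. With both sides limited to 5000 to 20000 UMIs all 20 genes of each list still passed. Both data sets of the Prokr2Cre nose had higher sums in members, at 1826 and 1512 CPM of S-phase genes against 1096 and 894 CPM. Genes induced by tissue dissociation were lower, with 8 of 11 fallen, including Atf3 (-1.56) and Fos (-0.74). Their sum was 3932, 1596, 1717 and 1982 CPM in members and 4402, 2730, 2286 and 2582 CPM in other mesenchyme.

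**Figure D4:**
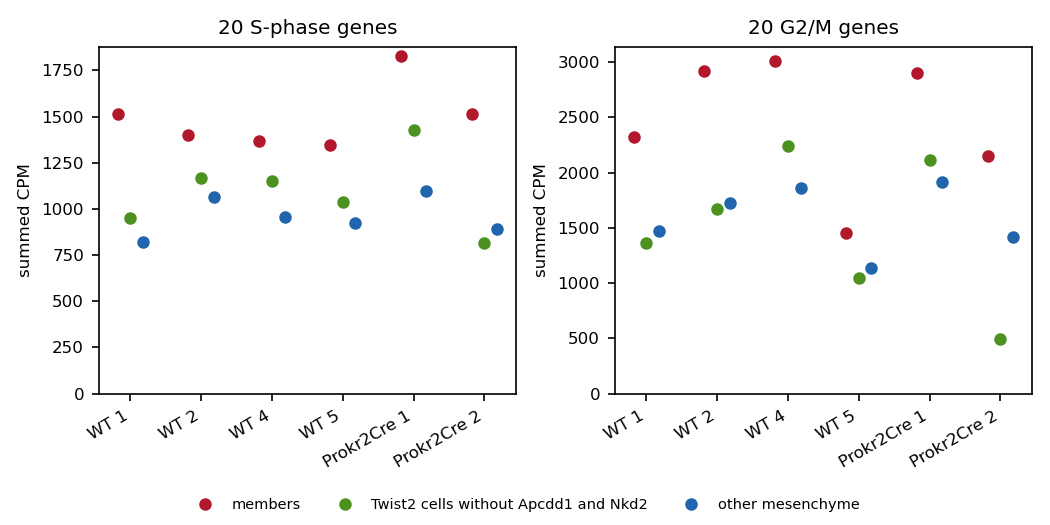
Summed CPM of 20 S-phase genes and 20 G2/M genes (y axes, from 0) in each library for members (red), Twist2 cells without Apcdd1 and Nkd2 (green) and other mesenchyme (blue). Members are the highest class in each of the 6 libraries, with S-phase sums of 1344 to 1826 CPM.

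Matrix genes were divided, with 15 of 36 higher and 11 lower and a median of 0.05. Col7a1, the anchoring fibril collagen below the epidermis, was at 20.8, 13.99, 18.0 and 9.65 CPM in members and at 3.41, 4.46, 4.49 and 3.65 CPM in other mesenchyme. These groups did not overlap, and the log2 fold change was 1.87 (SE 0.18, adjusted p = 8.5e-05). Col23a1, a membrane collagen, rose by 1.18 (SE 0.10), and Has2, the hyaluronan synthase, by 0.73 (SE 0.09). Eln (elastin) fell by 0.92 (SE 0.17) and was lower in 3 of 4 captures, with WT 1 the exception at 140.2 against 130.3 CPM. Hedgehog pathway genes rose in 7 of 10 cases and none fell. Gli1, the target and effector, rose by 0.66 (SE 0.14), a call lost without WT 4. Dermal condensate genes rose in 7 of 12 cases and fell in 2, with Tbx18 at 2.01 (SE 0.22), Corin at 1.79 (SE 0.27) and Prdm1 at 1.39 (SE 0.30), the last lost without WT 2 or WT 4. Markers of some other cell types were lower, with 7 of 8 epithelial, 4 of 6 endothelial, 3 of 6 pericyte and 5 of 6 glial and melanocyte genes fallen and none risen. Of the other lists, 0 of 5 immune, 1 of 2 muscle and 2 of 6 globin genes fell and none rose. Sums were higher in members for pericyte genes in WT 2 (173 against 130.2 CPM), immune genes in WT 4 (27.2 against 16.8 CPM), muscle genes in WT 4 (3.20 against 2.98 CPM) and globin genes in WT 5 (3187 against 2602 CPM). The rule removes Epcam and Pecam1 cells from the members alone, and with the same gates on both sides 2 of 7 epithelial (1 rose), 2 of 4 endothelial and 3 of 5 glial and melanocyte genes fell. Of the neuronal list Gap43 rose by 1.13 (SE 0.12) and Stmn2 by 0.67 (SE 0.19), the latter lost without WT 2 or WT 5, and 2 others fell.

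The second comparison asked what went along with Apcdd1 or Nkd2 among cells that already held Twist2. The members were set against the 2919 cells of the WT captures that passed the same gate but had no UMI of either gene (n = 4 captures). They share the member cells with the first comparison, so the results are not independent of it. Of 12630 genes tested, 1051 (8.32%) were higher and 1015 (8.04%) lower in the members, or 16.4% in all. Without the block no gene passed. In that fit 566 of 12630 genes had an unadjusted p below 0.05, fewer than the 1 in 20 that chance gives. DESeq2 with the block called 598 higher and 493 lower. Without WT 2 or WT 5 the counts were 1074 and 1245 in all, and without WT 1 they were 2097.

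Several of the regulators and the skin factors named above also separated members from these nearest cells. Sp9 was at 0.845, 17.7, 20.4 and 5.75 CPM in Twist2 cells without Apcdd1 and Nkd2 (log2 fold change 2.46, SE 0.20, adjusted p = 2.2e-05). Irx1 was at 6.76, 28.7, 16.6 and 9.96 CPM there, below every member value (log2 fold change 2.41, SE 0.15, adjusted p = 5.9e-06). The agouti gene rose by 2.03 (SE 0.21) and Pax1 by 1.41 (SE 0.16). Kcnip4, a potassium channel partner, rose by 2.28 (SE 0.18), with 5.19, 90.2, 246 and 117 CPM against 4.65, 19.5, 33.9 and 31.0 CPM, so that WT 1 showed little difference. Mmp11, a matrix metalloproteinase of stroma, rose by 1.62 (SE 0.13), Ndnf by 1.49 (SE 0.17) and Nebl by 1.68 (SE 0.11). Trps1 rose by 1.44 (SE 0.11), with 49.8, 464, 855 and 435 CPM in the cells without Apcdd1 and Nkd2.

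Wnt targets again rose with the gate genes. Of 8 tested, 7 rose and none fell, with a median log2 fold change of 1.04 beside 0.00 over all genes. Nkd1 was at 36.0, 62.8, 64.8 and 53.3 CPM in the comparison cells and rose by 1.51 (SE 0.14, adjusted p = 5.4e-05). Axin2 was at 17.7, 18.2, 29.8 and 14.2 CPM there and rose by 1.23 (SE 0.12, adjusted p = 6.0e-05). Sp5, at 2.96, 4.88, 6.34 and 3.64 CPM, rose by 2.22 (SE 0.22, adjusted p = 7.7e-05). Lef1 rose by 0.92 (SE 0.07), and Tcf7, which did not differ in the first comparison by its test, rose by 1.17 (SE 0.19). Bambi did not pass the test (0.09), and its sign turned without WT 5 and with at least 2 Twist2 UMIs asked of a member.

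Inhibitors, ligands and receptors moved in both directions. Of 13 inhibitors 5 rose, among them Wif1 (0.89), Sostdc1 (0.82) and Dkk1 (0.57, SE 0.10), and 7 fell, among them Sfrp1 (-1.05) and Sfrp2 (-0.81). The call of Sostdc1 was lost with DESeq2 and without WT 2. Sfrp2 was at 560, 238, 107 and 450.4 CPM in members and at 751, 498, 226 and 690.0 CPM in the comparison cells. It was lower in each capture, although the ranges overlapped. Of 14 ligand genes 5 rose and 3 fell, with Wnt4, a ligand of developing skin and kidney, at 1.48 (SE 0.18). Wnt4 was at 32.0, 16.6, 17.7 and 17.0 CPM against 15.3, 3.58, 7.20 and 5.56 CPM, so every member value was above every comparison value. Fzd10 rose by 1.32 (SE 0.17), while 8 of 19 receptor genes fell. Rspo4 rose by 1.57 (SE 0.39), and its call was lost with DESeq2 and without WT 2, WT 4 or WT 5.

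Dermal fibroblast genes did not share a direction here, with 4 of 15 higher and 4 lower. Crabp1 was at 441, 616, 527 and 336 CPM in the comparison cells and rose by 0.99 (SE 0.07, adjusted p = 1.4e-05). Dpt rose by 1.16 (SE 0.23), a call lost without WT 5. Dlk1, a Delta-like protein of fibroblast precursors, fell by 0.97 (SE 0.09) and Cthrc1 by 1.48 (SE 0.12). Of 11 dermal condensate genes 7 rose and 1 fell: Prdm1, a repressor of dermal papilla cells, rose by 2.01 (SE 0.25), Inhba, an activin subunit, by 0.59, Hey1, a Notch target, by 0.76 (SE 0.18) and Cdkn1a, a cell cycle inhibitor, by 1.17 (SE 0.26). The calls of Hey1 and Cdkn1a were lost with DESeq2 and without WT 4, and that of Hey1 also without WT 2 or WT 5. Col7a1 rose by 1.69 (SE 0.19), and Col13a1, a collagen of cell contacts, by 0.98 (SE 0.21), a call lost without WT 4.

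Cartilage genes and regional factors were again lower. By the same ranking the 8 lowest genes were Hapln1 (-1.90), Cnmd (-1.88), Col9a3 (-1.81), Col9a1 (-1.72), Col2a1 (-1.71), Mgp (-1.66), Mia (-1.64) and 1500015O10Rik (-1.59). Mgp, an inhibitor of mineralisation, was at 165, 79.2, 22.0 and 34.0 CPM in members and at 434, 197, 83.8 and 142 CPM in the comparison cells, lower within each capture (SE 0.11, adjusted p = 6.9e-06). Without WT 5, Hapln1 was -1.21, Cnmd was -1.28 and Col2a1 no longer passed, and the call of Col2a1 was also lost with DESeq2. Without WT 2, they moved the other way, with Hapln1 at -2.81, Cnmd at -2.56 and Col9a3 at -2.45. With at least 2 Twist2 UMIs asked of a member, Mia was -2.39, 1500015O10Rik -2.98, Sfrp1 -1.77, Aldh1a2 -2.48 and Foxc1 -2.47. None of 10 regional factors rose and 8 fell, with Aldh1a2 at -1.65 (SE 0.13), and of 29 craniofacial factors 1 rose and 9 fell, with Foxc1 at -1.60 (SE 0.12). Ogn, a proteoglycan of loose mesenchyme, fell by 0.91 (SE 0.12).

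Cell cycle genes also differed between both Twist2 classes. Of 20 S-phase genes 12 rose, and all 20 G2/M genes rose, with none lower. Mki67 was at 49.4, 66.1, 168 and 47.1 CPM in Twist2 cells without Apcdd1 and Nkd2 and at 92.6, 118, 239 and 78.7 CPM in members. It was higher in each capture (log2 fold change 0.70, SE 0.07, adjusted p = 6.9e-05). G2/M genes summed to 1360, 1672, 2241 and 1050.5 CPM in the comparison cells. With both sides limited to 5000 to 20000 UMIs, 10 S-phase and all 20 G2/M genes passed. The neuronal genes Stmn2 and Tubb3 each rose by 1.11 (SE 0.12 and 0.17). Other lists moved as well. Of 11 genes induced by dissociation 6 fell, among them Atf3 (-1.12) and Fos (-0.66), and 1 rose. Both endothelial genes tested and 2 of 4 immune genes fell, and 2 of 6 globin genes rose, or 5 of 6 without WT 1 and 0 of 6 with DESeq2. The part of these lists in the results was not tested.

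The third comparison set the members against dermal condensate-like cells, taken as cells with Sox2, Sox18 and a collagen transcript and no Epcam or Pecam1. There were 224 such cells: 19 in WT 2, 17 in WT 4, 18 in WT 5, none in WT 1, 33 in Prokr2Cre 1 and 137 in Prokr2Cre 2. The test used WT 2, WT 4 and WT 5 alone (n = 3), and values below are in that order. With 463366 UMIs in all on the condensate-like side it was the least deep of the 3. Of 11413 genes tested, 384 (3.36%) were higher and 249 (2.18%) lower in members, or 5.55% in all. DESeq2 called 358, and a fit without the block 370. The median log2 fold change over all genes was 0.11 and is to be read beside each value.

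Condensate genes stood higher in the Sox2 Sox18 cells without an exception among those that passed. Of 10 tested, 9 were lower in members and none higher, with a median of -2.24. Prdm1 was at 10.8, 21.4 and 4.60 CPM in members and at 75.2, 269 and 68.3 CPM in the condensate-like cells (log2 fold change -3.42, SE 0.36, adjusted p = 2.8e-14). Foxd1, a forkhead factor, was at 54.2, 72.3 and 54.7 CPM against 263, 244 and 538 CPM (-2.46, SE 0.25, adjusted p = 1.0e-15). The ranges did not overlap for either gene. Bmp3 (-3.48), Cdkn1a (-3.25), Fgf10 (-2.33), Tbx18 (-2.14), Hey1 (-1.96), Inhba (-1.89) and Bmp4 (-1.17) went the same way, although the call of Hey1 was lost without WT 5. In Prokr2Cre 2, which was not tested, the log2 ratio of CPM + 1 of Bmp4 was 0.08, and the other genes named here kept their direction. Sox18, which chose the comparison cells, was not tested here.

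Hedgehog genes went both ways, with 4 of 10 higher and 4 lower. The targets Ptch1, Gli1 and Hhip were lower in members, and Gas1, Cdon, Boc and Gli3, of which the first 3 are coreceptors, were higher. Ptch1, the receptor that the pathway induces as feedback, was at 78.9, 151 and 134 CPM in members and at 564, 782 and 632 CPM in condensate-like cells (log2 fold change -2.39, SE 0.20, adjusted p = 1.4e-20). Gas1 was at 236, 315 and 303 CPM against 65.8, 32.6 and 64.0 CPM (2.44, SE 0.29, adjusted p = 5.3e-12). Neither pair of ranges overlapped. Gli1 fell by 1.56 (SE 0.50, adjusted p = 0.041), and its call was lost in 8 of 11 alternatives, among them the fit without WT 5, where it was -0.97. The call of Hhip (-2.10) was lost without WT 5, where it was -1.30, and that of Boc was lost with DESeq2, without the block and without WT 4 or WT 5.

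**Figure D5:**
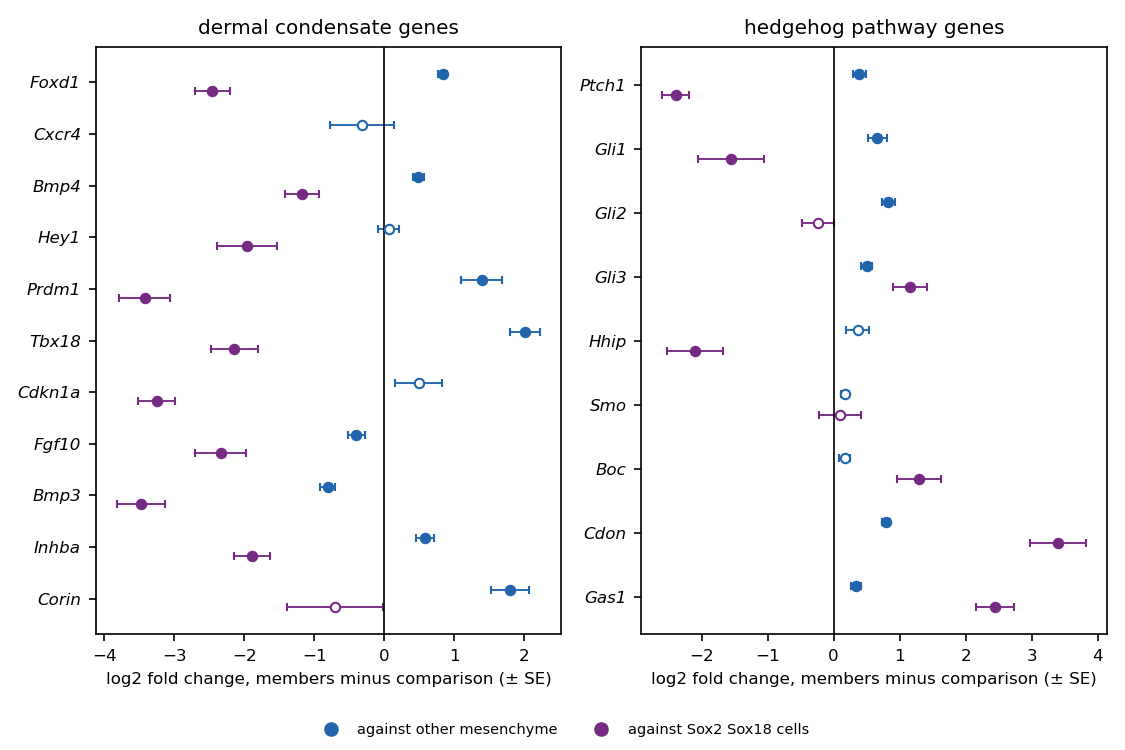
Log2 fold changes (x axis, with SE as bars) of dermal condensate and hedgehog pathway genes in members, against other mesenchyme (blue, 4 WT captures) and against Sox2 Sox18 cells (purple, 3 WT captures). Filled points passed an adjusted p of 0.05 in edgeR and open points did not. Gli1 lies above 0 against other mesenchyme and below 0 against Sox2 Sox18 cells, and Gas1 lies above 0 in both.

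Matrix and dermal fibroblast genes moved in both directions against condensate-like cells. Of 36 matrix genes 13 were higher and 8 lower in members, the latter including Col14a1 (-1.86) and Col6a3 (-1.50), which encode fibril-associated and microfibril collagens. Of 14 dermal fibroblast genes 5 were higher, among them Crabp1 (0.68), and 2 lower, Thy1 (-2.55) and Trps1 (-0.68). The call of Crabp1 was lost with DESeq2, without the block and without WT 2, and that of Trps1 without the block and without WT 2. The call of Thy1 was lost without WT 5, where it was -1.48, and with both sides limited to 5000 to 20000 UMIs, and Thy1 was -3.39 without WT 4. The log2 ratio of CPM + 1 of Thy1 was -2.29 in Prokr2Cre 1 and 0.83, the other way, in Prokr2Cre 2. Irx1 had no UMI in the 54 condensate-like cells of the 3 captures. Set against a floor of 3 counts over that group, the members were at least 15.1-fold higher. By the same bound Fibin was at least 11.8-fold, Acta2 at least 11.3-fold, Svep1, an adhesion protein of the matrix, at least 10.5-fold and Pax1 at least 10.3-fold higher, and Sp5 at least 3.97-fold, although the call of Sp5 was lost without WT 5. WT 5 held 234299 of the 463366 condensate-like UMIs, and without it the bounds were 7.68-fold for Irx1, 4.39-fold for Fibin, 5.94-fold for Acta2, 4.63-fold for Svep1, 4.79-fold for Pax1 and 1.91-fold for Sp5. Without WT 2 the bound was 9.70-fold for Irx1 and 5.19-fold for Acta2. In Prokr2Cre 1 and 2, which were not tested, all of these genes were higher in members too. The log2 ratios of CPM + 1 were 3.81 and 4.92 for Irx1, 2.94 and 2.35 for Pax1 and 2.17 and 3.72 for Svep1. They were 4.96 and 3.21 for Fibin, 1.47 and 6.56 for Acta2 and 3.30 and 3.21 for Sp5. Pax1 had 5 and 14 UMIs in the condensate-like cells there. Lum was at 384, 200.1 and 439 CPM in members and at 9.40, 8.15 and 17.1 CPM in condensate-like cells (4.86, SE 0.38, adjusted p = 1.8e-22). Ogn, Sim1, Lgr5, Cxcl12 and Nebl each had 1 UMI in those cells and 63.3 to 151 CPM in the members of these captures, so no fold is given.

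Lower in members were Pdlim3, a muscle LIM protein, at 6.65, 1.01 and 7.05 CPM against 263, 40.7 and 282 CPM (-5.26, SE 0.37, adjusted p = 1.9e-26), and Col19a1, a basement membrane zone collagen, at 4.20, 10.9 and 11.2 CPM against 292, 456 and 115 CPM. Adamts18 (-5.13), Rmst (-4.23), Klhl14 (-4.06), Mgll (-4.05) and Ngfr (-3.74), the low-affinity neurotrophin receptor, were also among the 8 lowest by the same ranking. Col19a1 was -4.83 and moved to -5.59 without WT 5 and to -5.42 under stricter cell filters. Adamts18 moved to -4.38 with both sides limited to 5000 to 20000 UMIs and to -4.54 with cells above 2 times the library median left out.

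Wnt genes differed in both directions: of 9 targets 2 were higher and 2 lower in members, and of 11 inhibitors 3 were higher and 3 lower, beside 5.55% of all genes called. Notum (-2.39) was lower, a call lost with DESeq2, without the filter on low counts and without any 1 of the captures. Lef1 was at 157, 336 and 218 CPM in members and at 442, 1010.3 and 337 CPM in condensate-like cells, so it was higher there in each capture (-1.16, SE 0.20, adjusted p = 1.5e-06). The call of Lef1 was lost without the block. Sostdc1 was at 585, 397 and 604 CPM in members against 65.8, 73.3 and 46.9 CPM (3.21, SE 0.26, adjusted p = 4.3e-21). Sfrp2 rose by 2.45 (SE 0.31) and Dkk2, another LRP5/6 blocker, by 1.92 (SE 0.38), which were 1.76 and 3.70 without WT 5. Dkk1 fell by 1.01 (SE 0.27), a call lost with DESeq2, without the block and without WT 2, and Draxin, a secreted Wnt antagonist, by 2.57 (SE 0.61), a call lost without WT 2 or WT 5. In Prokr2Cre 1 and 2, which were not tested, the log2 ratios of CPM + 1 were 0.77 and -0.22 for Sfrp2 and -1.16 and 1.00 for Dkk1. Both thus went the other way in Prokr2Cre 2. Notum, Lef1, Sostdc1, Dkk2 and Draxin kept their direction in both data sets. The alternative Wnt receptor Ror1 rose by 3.26 (SE 0.36), or 4.27 without WT 5 and 6.45 with both sides limited to 5000 to 20000 UMIs, and Rspo3 fell by 1.83 (SE 0.21). Of the proliferation lists, 1 S-phase and 1 G2/M gene of 20 each passed, both higher in members. The G2/M count rested on the captures used: without WT 5, 15 of 20 rose with a median of 2.02, and without WT 2 or WT 4 none passed, with medians of -0.03 and 0.20.

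Regional and quality lists moved with this comparison too. Of 9 regional factors 5 were higher in members and none lower, among them Barx1 (4.43) and Osr1 (2.22), and 2 were higher without WT 5. Osr1 passed in 11 of 11 alternatives, but Barx1 passed in 7 of 11, with log2 fold changes of 2.50 to 10.47 over the alternatives. Of 24 craniofacial factors 8 were higher and 2 lower, with 4 and 1 without WT 5. Of 11 genes induced by dissociation 4 were higher in members and none lower, among them Fos (1.53) and Jun (1.10), with sums of 1596, 1717 and 1982 CPM in members against 1100.3, 766 and 1443 CPM. DESeq2 called 1 of them, and the fit without WT 4 called 2. Fos passed in 11 of 11 alternatives, but Jun passed in 7 of 11. Of 4 globin genes 3 were higher, and DESeq2 called none. The part of these lists in the results was not tested.

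The Prokr2Cre nose held 338 and 79 members in its 2 data sets. In Prokr2Cre 1 and 2 members, Sp9 was at 54.8 and 24.1 CPM, Irx1 at 38.8 and 29.3 CPM, Cxcl14 at 1067 and 689 CPM and Lef1 at 197 and 206 CPM. The matching values in other mesenchyme were 3.13 and 5.69 CPM for Sp9, 1.85 and 0.971 for Irx1, 244 and 194 for Cxcl14 and 43.3 and 156 for Lef1. Lef1 was thus close on both sides in Prokr2Cre 2. Members of that data set stood apart from the WT members in other lists. Their pericyte genes summed to 404 CPM, against 54.3 to 173 CPM in WT members, and their glial and melanocyte genes to 61.1 CPM, against 4.90 to 19.2 CPM. Dermal condensate genes summed to 500.2 CPM in them and to 619 CPM in the other mesenchyme of Prokr2Cre 2, and neuronal genes to 406 and 796 CPM. Sox18 was seen in 23.7% and 20.3% of Prokr2Cre 1 and 2 members, and Sox9 in 8.88% and 27.8%. The part of these transcripts in the values above was not tested. Prokr2Cre 2 also differed in what the gate removed: 142 Twist2 cells were left out by the 4 excluded genes, 110 of them for Sox2, against 68 and 35 in Prokr2Cre 1 and at most 90 and 21 in a WT capture. Prokr2 itself, which drives Cre in this line, was at 13.8 CPM in Prokr2Cre 2 members (16 UMIs), at 0 in Prokr2Cre 1 members and at 0 to 2.86 CPM in WT members.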

How the data were processed

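The deposited matrices hold raw UMI counts per gene and cell. Per the file headers the authors counted them with Cell Ranger (6.0.1 for WT 1, 7.0.0 for the other WT libraries, 6.1.2 for Prokr2Cre), and per the submitters' processing notes on mm10. Whether intronic reads were counted is not given in the sources used here. A cell was kept when it showed 500 genes or more and its mitochondrial UMIs did not exceed 10%. Totals ran from 16773781 to 89800259 UMIs per library. Doublets were not called, and an alternative dropped cells above 2 times the library median. Counts were summed per capture and class over 30323 genes found in every library and tested with edgeR 4.0.16 in R 4.3.3 (TMM, filterByExpr, quasi-likelihood, Benjamini-Hochberg, 0.05). The 11 genes that define the classes, and Sox18 in the third comparison, were fitted but not tested. DESeq2 1.42.0 was an alternative. Classes of 1 capture come from the same library, which is why the capture was a block. Same-capture deviations from the class means correlated at 0.653 to 0.848 in the first 2 comparisons and at 0.0797 to 0.309 in the third. The members and all gene lists were chosen with earlier results of these data known. Per comparison, the 12 genes with the highest and the 8 with the lowest log2 fold change that passed, with the same sign in every capture and a mean of at least 50 CPM on the higher side, were named. Other genes come from the lists and were picked for their roles, some after their values were seen. Some genes of the lists and of this rule are not reported here, although they stay in the counts. The test was checked on simulated data.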

Additional observations from a re-analysis of the deposited data

Results flagged for a closer look

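Of 46 measures in the members of the 4 WT captures, 7 had 1 capture far from the other 3 by Dixon's 95% criterion. Chance gives about 1 in 20. In WT 1 the dissociation-induced genes summed to 3932 CPM, Vgll3 stood at 15.6 CPM and Ifitm5 at 52.8 CPM. In WT 2 the skeletal list summed to 611 CPM, Cytl1 stood at 18.9 CPM and the muscle list was lowest at 0.700 CPM. In WT 5 the globin genes summed to 3187 CPM. Some of the globin genes are near-identical copies whose reads can be split between them. The flagged value is the sum over the list.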

How the results depend on the processing

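Against other mesenchyme, 4086 genes passed. Without the replicate block 122 passed, with 1620 at an unadjusted p below 0.05, and leaving out 1 capture gave 2209 to 4705. Against Twist2 cells without Apcdd1 and Nkd2, 2066 passed. DESeq2 called 1091, and leaving out 1 capture gave 1074 to 2097. Without the replicate block 0 genes passed, and 566 of 12630 had an unadjusted p below 0.05, fewer than 1 in 20. Against Sox2 Sox18 cells 633 passed, with 358 in DESeq2, 370 without the replicate block and 449 to 514 with 1 capture left out, which leaves 2. The causes were not tested. Among named genes, Tcf7 turned to 0.76 against other mesenchyme with the members' gates on both sides, and Bambi to -0.19 with at least 2 Twist2 UMIs against Twist2 cells without Apcdd1 and Nkd2, where leaving out 1 capture gave -0.017 (without WT 5) to 0.17. No other direction reversed under the alternatives run. Apart from the fit without the block, 83 of 91, 44 of 52 and 44 of 55 genes examined kept their call in all alternatives of the 3 comparisons. The calls lost by those examined genes that are named above are given beside them. For Barx1 and Jun in the third comparison, the number of alternatives passed is given. The mean WT share of members, 9.10%, ran from 4.75% with cells thinned to 3000 UMIs to 10.2%, beside an SD of 5.90. The Sox2 Sox18 side of the third comparison held 463366 UMIs in 54 cells.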
